A study of Schizosaccharomyces pombe with 14 samples.

Results

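The genes described here are the fission yeast (Schizosaccharomyces pombe) genes for tRNA processing and modification, followed in a strain without maf1 and in a wild type during 48 h without phosphate. They were chosen by annotation alone. A protein-coding gene was taken when its product description in the deposited comparison of the strains at 0 h contained the text tRNA and did not contain synthetase, rRNA or translation. Genes described as a tRNA ligase were left out except trl1, as were genes whose names begin with mug, meu, utp or nop. The rule gave 77 genes of 6988 identifiers in the count table, 5124 of them protein-coding. All 77 passed the filter on low counts, and the 4 genes given as marks of the group, tit1, trz2, trm7 and pus4, were among them. The deletion strain is h+ and carries natMX in place of maf1. The wild type is h-. At 0 h both grew in log phase in rich YES medium. At 4, 8, 12, 24, 36 and 48 h they had been in synthetic ePMGT medium without phosphate, and the labels describe 4 to 12 h as limited growth and 24 to 48 h as quiescence. Each strain at each time has 3 replicate libraries, 42 in all. Mating type and genotype change together between the strains, and so do the change of medium and the loss of phosphate between 0 h and the later times, so that neither pair can be told apart.

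A tRNA is transcribed by RNA polymerase III as a precursor. Endonucleases trim its ends, some precursors lose an intron, CCA is added to the 3' end, and many bases are then methylated, isomerised, reduced, deaminated or given larger groups, most densely around the anticodon, where such groups affect decoding and reading frame. Maf1 is a repressor of RNA polymerase III in starved cells, and the title of the series ties its loss to aberrant tRNA production. The libraries hold poly(A) RNA, so the values below are levels of the mRNAs of the processing and modification enzymes. The tRNAs and their modifications are not measured by them, and in a whole culture a change in every cell and a change in some cells cannot be told apart.

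Total counts ran from 33249827 to 42808200 in the 21 deletion libraries and from 12157201 to 26359389 in the 21 wild-type libraries. The 77 genes together held 0.419 to 0.667% of the counts of a deletion library and 0.418 to 0.681% of those of a wild-type library. The maf1 transcript followed the labels, at 1.59 to 7.13 CPM in the deletion libraries and 20.9 to 106 CPM in the wild-type libraries. CPM express a count relative to the size of its library after TMM, a scaling that adjusts for RNA composition. They are not divided by gene length, so levels of different genes are not compared. The labels do not say that replicates came from separate cultures, and p-values then measure the spread between these libraries, which may be technical. In the RefSeq annotation of assembly ASM294v3, used only for which genes neighbour each other, 73 of the 77 genes overlap a gene on the opposite strand. On the same strand 7 overlap another gene. The library kit keeps strand, but whether the counting used it is not given in the sources used here, and values of overlapping partners are given beside some of the results they touch, and their part in the values of the members was not tested.

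Without phosphate more genes of this group fell than rose, in either strain and at either stage. The falling shares exceeded those of all genes in the deletion strain and were near or below them in the wild type. A gene was called when edgeR's quasi-likelihood test over all 6521 genes gave an adjusted p under 0.05 and the change was at least 2-fold, with the mean of 3 times standing for a stage. In the deletion strain at 4 to 12 h, against its 0 h, 1 gene rose and 23 fell of 77, where 18.7% of all genes tested were called higher and 16.3% lower (35.0% in all). The wild type at 4 to 12 h had 8 genes that rose and 15 that fell, with 19.6% and 18.9% of all genes (38.5% in all). At 24 to 48 h against 0 h, 3 genes rose and 21 fell in the deletion strain, beside 22.6% and 18.7% of all genes (41.3% in all). The wild type then had 10 that rose and 12 that fell, beside 22.0% and 20.1% (42.1% in all). As shares of the group, 29.9% and 27.3% fell in the deletion strain and 19.5% and 15.6% in the wild type, the early stage first. The rising shares were 1.30% and 3.90% in the deletion strain and 10.4% and 13.0% in the wild type, all below the shares of all genes. All 77 are protein-coding, while the 6521 genes include non-coding ones. Of the 5048 protein-coding genes tested, 15.4% and 18.8% fell in the deletion strain and 15.8% and 16.2% in the wild type. Shares of 15.2% and 16.9% of them rose in the deletion strain, and 17.8% and 20.7% in the wild type.

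The median log2 change of the 77 genes at 4 to 12 h was -0.64 in the deletion strain and -0.35 in the wild type, where the medians of all genes were 0.01 and 0.04. At 24 to 48 h it was -0.60 in the deletion strain and -0.23 in the wild type, with all-gene medians of -0.01 and 0.00. Protein-coding genes alone had medians of -0.04 and 0.04 at 4 to 12 h, the deletion strain first, and -0.12 and 0.03 at 24 to 48 h. Without the 2-fold condition, 57 genes were lower and 14 higher at an adjusted p under 0.05 in the deletion strain at 4 to 12 h, and 44 lower and 24 higher in the wild type. Higher genes made up 34.8% of the wild-type calls at the early stage and 45.5% at the late one. Scaled by library size alone, these shares were 23.3% and 32.1%, and the median of all genes moved by -0.18 and -0.27, with the group at -0.39 and -0.23 relative to it under both scalings.

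**Figure D1:**
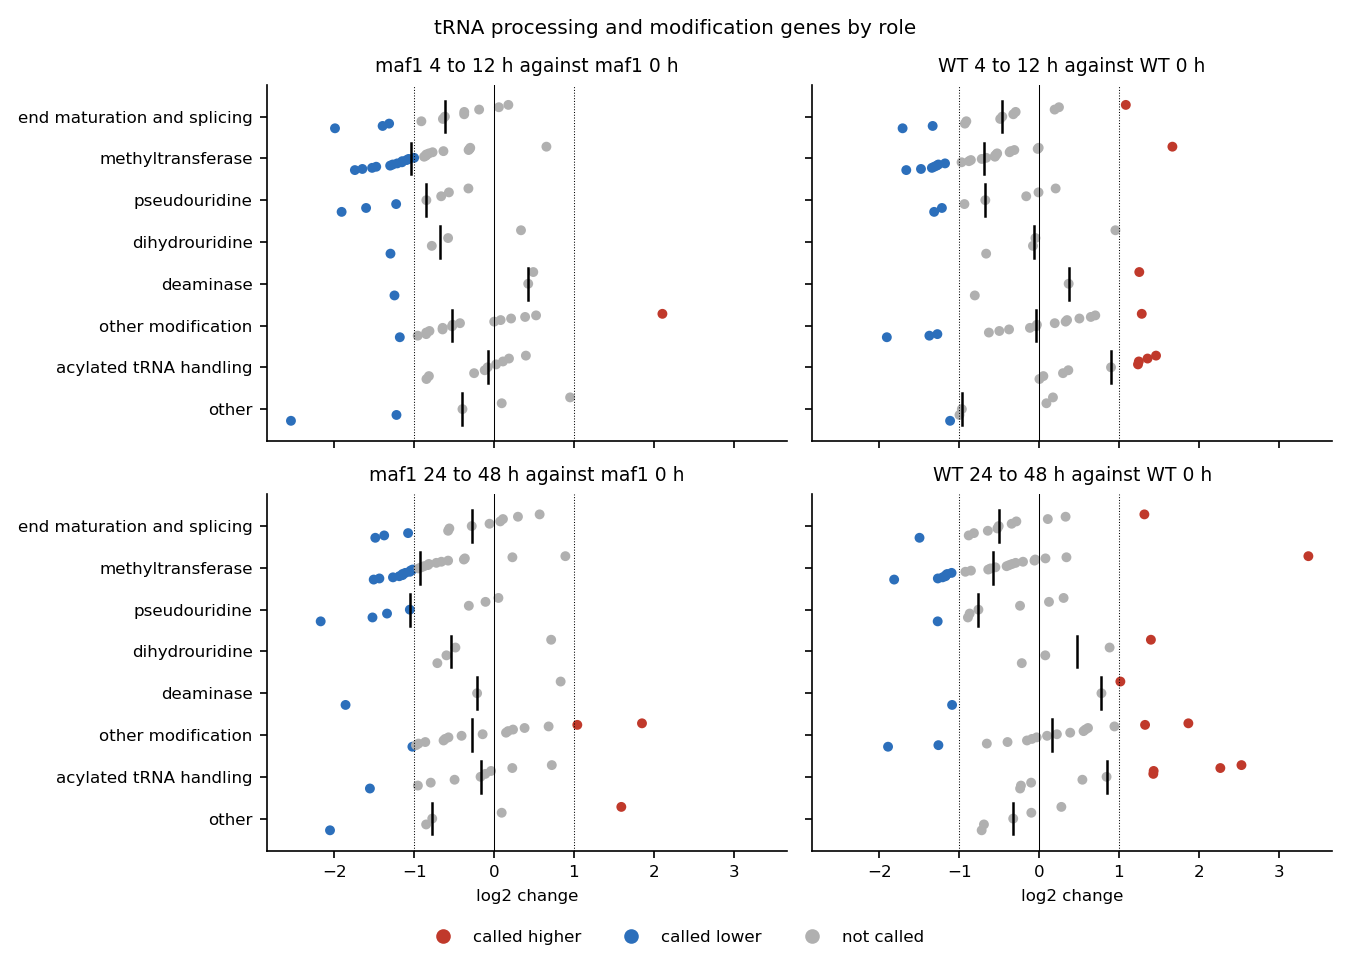
Log2 change of each of the 77 genes against 0 h of its own strain (horizontal axis), by role (vertical axis), for the maf1 deletion in the left panels and the wild type in the right panels, at 4 to 12 h above and 24 to 48 h below. Each point is 1 gene, black bars are role medians and dotted lines mark 2-fold; in the lower right panel trm7 stands alone at 3.37, and in the left panels only tum1 (2.11) is called higher at 4 to 12 h.

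Among the 11 genes for end maturation and splicing, 3 fell in the deletion strain at 4 to 12 h, while 1 rose and 2 fell in the wild type. Of all genes 16.3% fell in the deletion strain there, and 19.6% rose and 18.9% fell in the wild type. Counts by role, here and below, were not tested against such shares. The 2 genes for tRNase Z, the endonuclease that cuts the trailer off the 3' end, went opposite ways in the wild type. The gene for the mitochondrial form, trz2, had 59.4, 57.6 and 57.8 CPM at 0 h, 10.4 to 21.5 CPM (median 13.7) at 4 to 12 h and 49.2 to 64.2 CPM (median 57.9) at 24 to 48 h in the deletion strain. Wild-type values were 65.8, 61.01 and 64.8 CPM at 0 h, 15.5 to 24.6 CPM (median 18.9) at 4 to 12 h and 37.5 to 55.99 CPM (median 44.3) at 24 to 48 h. Every library at 4 to 12 h lay below every 0 h library of its strain, and at 24 to 48 h the deletion libraries overlapped those of 0 h, whereas the wild-type ones still lay below. The fall at 4 to 12 h was 3.97-fold in the deletion strain (log2 -1.99, SE 0.05, adjusted p = 2.65e-31) and 3.27-fold in the wild type (log2 -1.71, SE 0.05, adjusted p = 2.26e-28). By time, trz2 averaged 58.2, 11.1, 14.04, 20.3, 49.7, 58.2 and 60.8 CPM in the deletion strain at 0, 4, 8, 12, 24, 36 and 48 h, and 63.9, 16.8, 18.3, 24.4, 39.9, 43.7 and 52.5 CPM in the wild type. The lowest value was at 4 h in both, and levels were higher at each later time. The changes at 24 to 48 h against 0 h, -0.06 in the deletion strain and -0.50 in the wild type, were not called.

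The nuclear form, trz1, behaved otherwise. Its levels in the deletion strain were 87.98, 83.95 and 87.1 CPM at 0 h, 81.1 to 106 CPM (median 103) at 4 to 12 h and 108 to 158 CPM (median 129.6) at 24 to 48 h. Those in the wild type were 39.8, 39.9 and 37.4 CPM at 0 h, 76.7 to 88.9 CPM (median 83.1) at 4 to 12 h and 81.4 to 113 CPM (median 102) at 24 to 48 h. All wild-type libraries without phosphate were above those of 0 h, and the deletion strain at 0 h already stood at the level that the wild type had at 4 to 12 h. The rise in the wild type was 2.12-fold at 4 to 12 h (log2 1.09, SE 0.05, adjusted p = 5.01e-22) and 2.495-fold at 24 to 48 h. Without maf1, trz1 had log2 changes of 0.18 and 0.57, neither called. Scaled by library size alone, trz1 had a log2 change of 0.91 in the wild type at 4 to 12 h and was not called. On the opposite strand trz1 overlaps lkh1 over 18.5% of its length, and lkh1 had a log2 change of -0.62 there.

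The splicing machinery was lowered in part. The ligase gene trl1, whose product joins the exons of a tRNA after the intron is cut out, had 95.9, 98.6 and 95.9 CPM at 0 h, 31.2 to 42.9 CPM (median 36.7) at 4 to 12 h and 38.1 to 52.6 CPM (median 48.2) at 24 to 48 h in the deletion strain. Its wild-type levels were 99.4, 101 and 102 CPM at 0 h, 33.3 to 51.8 CPM (median 37.4) at 4 to 12 h and 33.2 to 42.2 CPM (median 35.6) at 24 to 48 h. No library without phosphate reached the 0 h level in either strain. The log2 changes were -1.39 and -1.08 in the deletion strain, and -1.33 and -1.50 in the wild type, the early stage first. The gene tpt1, for the enzyme that removes the 2'-phosphate left at the splice junction, fell in the deletion strain (-1.31, then -1.38), and its changes in the wild type were -0.29 and -0.64, not called. Of the 4 subunit genes of the splicing endonuclease, the catalytic sen34 fell in the deletion strain at 24 to 48 h (log2 -1.49, SE 0.04, adjusted p = 7.27e-28). The second catalytic subunit gene, sen2, and the structural sen15 and sen54 were not called in any comparison with 0 h or between strains. The pair that builds the CCA end, cca1 and cca2, was not called either, with log2 changes between -0.93 and 0.30 against 0 h, and neither was thg1, whose product adds the extra 5' guanosine of histidine tRNA.

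Methyltransferases and their partner subunits, 22 genes, held about as many falling calls as all other roles together in the deletion strain. Without maf1, 12 fell at the early stage and 10 at the late one, against 7 that fell and 1 that rose at each stage in the wild type. Of all genes 16.3% and 18.7% fell in the deletion strain, and 18.9% and 20.1% in the wild type, where 19.6% and 22.0% rose. The role's median log2 change was -1.03 in the deletion strain and -0.69 in the wild type at 4 to 12 h. The 1 gene that rose was trm7, for the 2'-O-methyltransferase of the anticodon loop. Its levels in the deletion strain were 78.6, 86.9 and 82.5 CPM at 0 h, 80.9 to 187 CPM (median 147) at 4 to 12 h and 129 to 181 CPM (median 149) at 24 to 48 h. The wild type had 51.9, 44.3 and 45.95 CPM at 0 h, 75 to 289 CPM (median 162) at 4 to 12 h and 399.7 to 635 CPM (median 484) at 24 to 48 h. Wild-type libraries without phosphate all exceeded those of 0 h, and at 24 to 48 h the lowest wild-type library was above the highest deletion library. By time the wild type averaged 47.4, 76.5, 163, 277, 409.8, 477 and 609 CPM at 0, 4, 8, 12, 24, 36 and 48 h, higher at each step, against 82.7, 82.8, 146, 183, 176, 149 and 138 CPM in the deletion strain, which was highest at 12 h. The rise in the wild type was 3.18-fold at 4 to 12 h (log2 1.67, SE 0.05, adjusted p = 2.19e-28) and 10.4-fold at 24 to 48 h (log2 3.37, SE 0.05, adjusted p = 9.24e-37), the largest change of the group. In the deletion strain the changes were 0.66 and 0.89, not called.

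The 2 partner subunits of Trm7 did not follow it. Trm732 directs the methyltransferase to the 5' side of the anticodon loop and Trm734 to the wobble base. For trm734 the deletion libraries held 61.4, 63.9 and 61.4 CPM at 0 h, 34.6 to 41.4 CPM (median 35.3) at 4 to 12 h and 34.1 to 42.7 CPM (median 40.1) at 24 to 48 h. The wild-type libraries held 129.8, 121 and 142 CPM at 0 h, 35.5 to 51.5 CPM (median 38.6) at 4 to 12 h and 34.2 to 40.4 CPM (median 38.2) at 24 to 48 h. In both strains all libraries without phosphate were below those at 0 h, and at 0 h the deletion strain stood below the wild type. The fall was called in the wild type at both stages (-1.66 and -1.81), and the changes of the deletion strain, -0.77 and -0.66, were not. The trm732 transcript fell in the deletion strain at 4 to 12 h (-1.15) and in the wild type at both stages (-1.18 and -1.21), and its change in the deletion strain at 24 to 48 h was -0.94. Thus in the wild type at 24 to 48 h the catalytic subunit's transcript was 10.4-fold higher and those of its partners 2.31-fold and 3.51-fold lower than at 0 h.

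**Figure D2:**
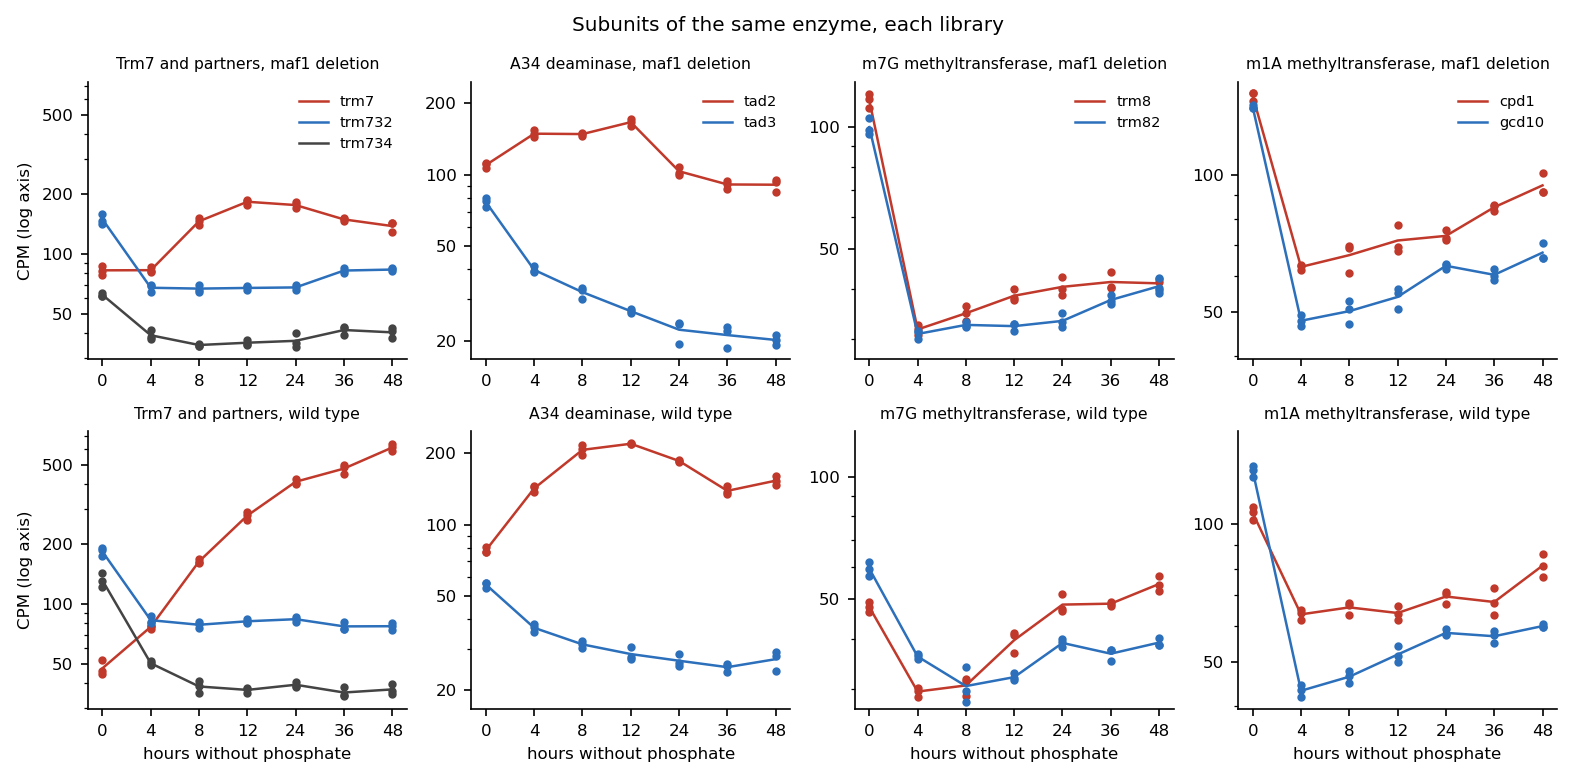
CPM on a log axis against hours without phosphate for subunits of the same enzyme, the maf1 deletion above and the wild type below; points are libraries and lines join the means of 3. Levels of different genes are not comparable, only their courses: trm7 and tad2 went up in the wild type while their partners trm732, trm734 and tad3 went down, and trm8 with trm82 and cpd1 with gcd10 moved the same way in the deletion strain.

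Other methyltransferase subunits moved together in the deletion strain. Trm8 and Trm82 form the enzyme for m7G, the 7-methylguanosine of the variable loop. The catalytic subunit gene trm8 had 112, 121 and 117 CPM at 0 h, 30.8 to 39.96 CPM (median 34.8) at 4 to 12 h and 38.6 to 44.1 CPM (median 40.4) at 24 to 48 h in the deletion strain. It had 46.5, 49.2 and 47.8 CPM at 0 h, 28.8 to 41.3 CPM (median 31.4) at 4 to 12 h and 46.7 to 56.97 CPM (median 49.3) at 24 to 48 h in the wild type. The deletion strain at 0 h was above every other group of libraries, and after phosphate was removed the strains came close. The fall in the deletion strain was 3.34-fold at 4 to 12 h (log2 -1.74, SE 0.04, adjusted p = 2.84e-32) and 2.84-fold at 24 to 48 h, while the wild type had log2 changes of -0.53 and 0.08, not called. The trm82 transcript fell likewise in the deletion strain (-1.65 and -1.44) and had log2 changes of -0.85 and -0.64 in the wild type.

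The m1A methyltransferase, which Cpd1 and Gcd10 form, had a falling non-catalytic subunit in both strains. For gcd10 the deletion libraries held 140, 142 and 140 CPM at 0 h, 46.5 to 56.1 CPM (median 50.6) at 4 to 12 h and 58.6 to 70.95 CPM (median 63.3) at 24 to 48 h, and the wild-type libraries 131, 135 and 127 CPM at 0 h, 41.7 to 54.04 CPM (median 46.5) at 4 to 12 h and 54.96 to 60.4 CPM (median 58.5) at 24 to 48 h. The groups with and without phosphate did not overlap in either strain, and the log2 changes at 4 to 12 h were -1.47 in the deletion strain and -1.48 in the wild type. Its catalytic partner cpd1 fell in the deletion strain at 4 to 12 h (-1.15), with -0.72 in the wild type.

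Trm112 is a small subunit that several methyltransferases share, Trm11 and, in budding yeast, Trm9 among them. Its gene had 114, 108 and 110.2 CPM at 0 h, 25.7 to 56.4 CPM (median 39.3) at 4 to 12 h and 48.5 to 61.8 CPM (median 53.1) at 24 to 48 h in the deletion strain, and 40.03, 45.95 and 41.5 CPM at 0 h, 17.8 to 39.8 CPM (median 31.8) at 4 to 12 h and 30.3 to 38.9 CPM (median 31.9) at 24 to 48 h in the wild type. It was highest in the deletion strain at 0 h and fell there (-1.53 and -1.05), with -0.55 and -0.34 in the wild type. An antisense RNA covers 84.3% of trm112, at 2.22 CPM in the deletion strain and 3.67 CPM in the wild type at 0 h. The clients trm11 (for the m2G methyltransferase's catalytic subunit) and trm9 (for a wobble uridine methyltransferase) each fell in the deletion strain at 1 stage, trm11 by 1.21 at 4 to 12 h and trm9 by 1.05 at 24 to 48 h on the log2 scale.

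The remaining methyltransferases that fell in both strains at 4 to 12 h were trm402 for a cytosine-5 methyltransferase (-1.27 in the deletion strain and -1.26 in the wild type), trm10 for an m1G methyltransferase (-1.30 and -1.28) and trm141 for a cytosine-3 methyltransferase of serine tRNA (-1.07 and -1.31). The second cytosine-5 methyltransferase gene of the trm4 pair, trm401, fell in the deletion strain (-1.09 and -1.27) and had log2 changes of -0.35 and -0.29 in the wild type. The trm2 transcript, for the enzyme that makes ribothymidine of the T loop, had 54.5, 55.4 and 52.7 CPM at 0 h, 26.2 to 39.7 CPM (median 27.8) at 4 to 12 h and 21.8 to 31.9 CPM (median 27.2) at 24 to 48 h in the deletion strain and 97.7, 98.05 and 96.8 CPM at 0 h, 33.02 to 47.5 CPM (median 36.3) at 4 to 12 h and 33.7 to 46.4 CPM (median 39.4) at 24 to 48 h in the wild type. Every library without phosphate was below those of 0 h in both. At 4 to 12 h its fall was called in the wild type (-1.34) and not in the deletion strain (-0.81), and at 24 to 48 h it was called in both (-1.02 in the deletion strain, at the threshold, and -1.27 in the wild type). The genes trm1, whose fall in the deletion strain at 4 to 12 h lay at the 2-fold threshold, and trm44 fell in the deletion strain at 24 to 48 h (-1.15 and -1.11). Not called in any comparison with 0 h or between strains were pmt1, ppm2, trm5, trm13 and trm140.

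Of the 7 genes of pseudouridine synthesis, 3 fell at 4 to 12 h and 4 at 24 to 48 h in the deletion strain, and 2 and 1 in the wild type. The shares of all genes that fell were 16.3% and 18.7% in the deletion strain, and 18.9% and 20.1% in the wild type. The pus4 gene encodes a synthase that in budding yeast acts on the T loop. It had 192, 188 and 188 CPM at 0 h, 71.7 to 91.4 CPM (median 81.3) at 4 to 12 h and 137 to 233 CPM (median 172) at 24 to 48 h in the deletion strain. The wild type had 80.5, 82.7 and 78.9 CPM at 0 h, 60.9 to 82.6 CPM (median 73.8) at 4 to 12 h and 74.7 to 102 CPM (median 86.2) at 24 to 48 h. The wild-type groups overlapped throughout, whereas the deletion strain was high at 0 h, low at 4 to 12 h without overlap and high again at 24 to 48 h. By time the deletion strain averaged 189, 80.6, 73.7, 89.6, 139.7, 177 and 220.3 CPM, and the wild type 80.7, 80.6, 61.9, 75.3, 85.05, 79.4 and 101 CPM. The change in the deletion strain at 4 to 12 h was log2 -1.23, SE 0.03, adjusted p = 9.78e-29, and that in the wild type was -0.16.

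The transcript of pus9, for a further synthase, had 157, 155 and 150.3 CPM at 0 h, 41.7 to 62.7 CPM (median 50.7) at 4 to 12 h and 31.7 to 37.8 CPM (median 34.01) at 24 to 48 h in the deletion strain and 75.2, 79.6 and 79.7 CPM at 0 h, 40.3 to 62.9 CPM (median 47.5) at 4 to 12 h and 37.1 to 45.05 CPM (median 42.7) at 24 to 48 h in the wild type. Both strains had lower values in every library without phosphate, and the fall was called in the deletion strain (-1.60, then log2 -2.17, SE 0.04, adjusted p = 1.18e-33) and not in the wild type (-0.67 and -0.89). A non-coding RNA on the opposite strand covers all of pus9 and had log2 changes of -0.27, -0.62, 0.25 and -0.30 in those 4 comparisons. The pus1 gene, whose product acts on tRNA and on U2 snRNA, fell in the deletion strain (-1.91 and -1.52) and in the wild type at 4 to 12 h (-1.22). The pus3 and deg1 genes fell in the deletion strain at 24 to 48 h (-1.34 and -1.05). The pus2 gene fell in the wild type (-1.31 and -1.27), with -0.56 and 0.06 in the deletion strain. In the late response the strains differed in pus2 by log2 1.32, SE 0.09, adjusted p = 1.82e-16.

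Of the 4 dihydrouridine synthase genes, only dus2 was called between the strains at 0 h, though all 4 had an unadjusted p under 0.05 by edgeR's quasi-likelihood test. The dus4 libraries did not overlap there, at 42.8 to 50.6 CPM in the deletion strain and 23.7 to 25.2 CPM in the wild type. The dus2 gene had 76.1, 81.9 and 79.8 CPM at 0 h, 23.8 to 40.5 CPM (median 36.2) at 4 to 12 h and 47.9 to 58.6 CPM (median 52.1) at 24 to 48 h in the deletion strain and 26.9, 29.1 and 28.7 CPM at 0 h, 14.8 to 43.4 CPM (median 30.4) at 4 to 12 h and 47.1 to 59.4 CPM (median 50.6) at 24 to 48 h in the wild type. At 0 h the deletion libraries were all above the wild-type ones, and the later groups of the strains overlapped. It fell in the deletion strain at 4 to 12 h (log2 -1.30, SE 0.04, adjusted p = 5.03e-26) and had a log2 change of -0.08 in the wild type. The dus4 gene rose in the wild type at 24 to 48 h (1.40) and had 0.72 in the deletion strain. The changes of dus1 and dus3 were not called.

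The adenosine deaminase of the wobble position, which makes inosine, is a dimer of Tad2, the catalytic subunit, and Tad3. Their transcripts moved apart. For tad2 the deletion libraries held 107, 112 and 111 CPM at 0 h, 145 to 173 CPM (median 150.2) at 4 to 12 h and 84.7 to 108 CPM (median 94.2) at 24 to 48 h. The wild-type libraries held 80.2, 77.05 and 76.8 CPM at 0 h, 138 to 222 CPM (median 208) at 4 to 12 h and 134 to 188 CPM (median 153) at 24 to 48 h. All libraries at 4 to 12 h were above those of 0 h in both strains, and the rise was called in the wild type (log2 1.26, SE 0.04, adjusted p = 1.57e-27) and not in the deletion strain (0.49). At 24 to 48 h the wild type was 2.03-fold higher than at 0 h, close to the threshold, and the call was lost with 3 of the other scalings and without the low-count filter. For tad3 the deletion libraries held 77.3, 79.8 and 73.3 CPM at 0 h, 26.04 to 41.2 CPM (median 32.8) at 4 to 12 h and 18.7 to 23.8 CPM (median 21.1) at 24 to 48 h, and the wild-type libraries 53.9, 57.02 and 56.9 CPM at 0 h, 27.2 to 38.1 CPM (median 31.3) at 4 to 12 h and 23.8 to 29.1 CPM (median 25.96) at 24 to 48 h. Every library without phosphate was below those of 0 h. The fall was called in the deletion strain at both stages (-1.25 and -1.86) and in the wild type at 24 to 48 h (-1.09), with -0.80 at 4 to 12 h. The third deaminase, Tad1, acts next to the anticodon, and its gene was not called.

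Other modifications were served by 16 genes, of which 1 rose and 1 fell in the deletion strain at 4 to 12 h, and 1 rose and 3 fell in the wild type. Of all genes 18.7% rose and 16.3% fell in the deletion strain there, and 19.6% and 18.9% in the wild type. The isopentenyltransferase gene tit1, whose product adds isopentenyl to the adenosine beside the anticodon, had 60.8, 63.4 and 62.2 CPM at 0 h, 28.2 to 45.2 CPM (median 32.2) at 4 to 12 h and 28.4 to 34.5 CPM (median 33.6) at 24 to 48 h in the deletion strain. The wild type had 154, 128 and 160.4 CPM at 0 h, 34.2 to 44.5 CPM (median 38.7) at 4 to 12 h and 35.8 to 42.97 CPM (median 41.7) at 24 to 48 h. Libraries of 0 h were the highest of each strain without overlap, and the wild-type ones at 0 h were above all others. The wild type fell 3.75-fold at 4 to 12 h (log2 -1.90, SE 0.05, adjusted p = 2.67e-28) and 3.71-fold at 24 to 48 h. The deletion strain, which started lower, had log2 changes of -0.85 and -0.95, not called. The whole of tit1 lies opposite wdr70, a gene with 32.0 CPM in the deletion strain and 76.0 CPM in the wild type at 0 h, which had a log2 change of 0.63 in the deletion strain and -0.41 in the wild type at 4 to 12 h.

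Enzymes of wobble uridine thiolation went in different directions. The sulfurtransferase gene tum1 had 58.3, 56.3 and 59.5 CPM at 0 h, 202 to 302 CPM (median 251) at 4 to 12 h and 186 to 237 CPM (median 203) at 24 to 48 h in the deletion strain, and 141, 108 and 135 CPM at 0 h, 156 to 257 CPM (median 226) at 4 to 12 h and 219.6 to 272 CPM (median 255) at 24 to 48 h in the wild type. The deletion strain was lowest at 0 h, with no overlap with any other group. The rise was called in the deletion strain at both stages (log2 2.11, SE 0.06, adjusted p = 3.37e-29, then 1.85) and not in the wild type (0.70 and 0.94). Beside it on the opposite strand lies got1, which covers 6.6% of tum1 and had a log2 change of -0.78 in the deletion strain and -2.41 in the wild type at 4 to 12 h. The nfs1 gene, for the cysteine desulfurase that supplies sulfur to iron-sulfur clusters and to tRNA, had 314, 303 and 312 CPM at 0 h, 159.5 to 202 CPM (median 168) at 4 to 12 h and 264 to 416 CPM (median 363) at 24 to 48 h in the deletion strain and 546, 501 and 591 CPM at 0 h, 181 to 254 CPM (median 212) at 4 to 12 h and 277 to 424 CPM (median 359) at 24 to 48 h in the wild type. It fell in the wild type at 4 to 12 h (log2 -1.37, SE 0.04, adjusted p = 3.02e-28), with -0.85 in the deletion strain.

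The queuosine gene qtr3 had 39.3, 37.3 and 36.2 CPM at 0 h, 38.8 to 48.4 CPM (median 45.5) at 4 to 12 h and 39.5 to 47.9 CPM (median 44.7) at 24 to 48 h in the deletion strain, and 17.2, 15.5 and 16.5 CPM at 0 h, 28.4 to 54.2 CPM (median 42.8) at 4 to 12 h and 54.5 to 70.5 CPM (median 57.3) at 24 to 48 h in the wild type. The wild-type libraries stood apart at 0 h, below all others, and at 24 to 48 h, above all others, and the rise was called in the wild type at both stages (1.29 and 1.87), with 0.21 and 0.24 in the deletion strain. The 2 subunit genes of the enzyme that exchanges guanine for queuine, qtr1 and qtr2, were not called. The tan1 gene, for a tRNA acetyltransferase, rose in the wild type at 24 to 48 h (1.33), with 0.38 in the deletion strain. The wybutosine gene trm12 fell in the wild type at both stages (-1.27 and -1.26) and in the deletion strain (-1.18 and -1.02). Of the genes for threonylcarbamoyl adenosine, pgp1 rose in the deletion strain at 24 to 48 h (1.04, and not with 1 library of 0 h left out), and sua5 and tcd1 were not called against 0 h. The Elongator subunit gene elp3, the mitochondrial wobble genes mss1 and slm3, and rit1, for the enzyme that marks initiator tRNA, were not called against 0 h either.

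**Figure D3:**
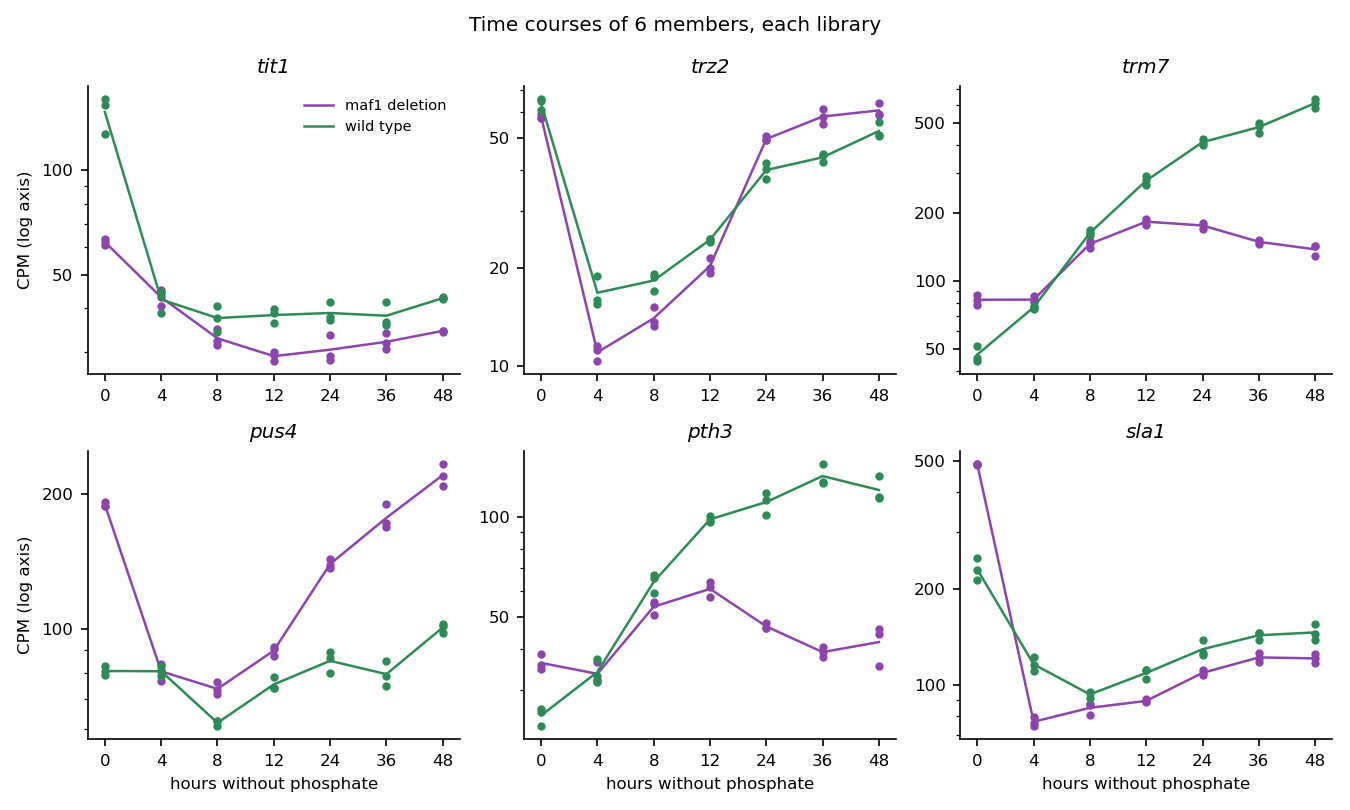
CPM on a log axis against hours without phosphate for tit1, trz2, trm7, pus4, pth3 and sla1, the maf1 deletion in purple and the wild type in green; points are libraries and lines join the means of 3. The strains do not overlap at 0 h for any of these genes, the deletion being lower for tit1 and trz2 and higher for the others. Nor do they overlap from 12 h on for trm7, pth3 and pus4.

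Among the 9 genes that handle acylated tRNA, 4 rose at each stage in the wild type, where 19.6% and 22.0% of all genes rose. In the deletion strain 1 fell at 24 to 48 h, and at 4 to 12 h edgeR's quasi-likelihood test and DESeq2 each called 0 of 9, with 6 at an unadjusted p under 0.05. Of all genes 18.7% fell in that strain at the late stage, and edgeR called 35.0% in either direction at the early one. Peptidyl-tRNA hydrolases free tRNAs from stalled peptides. For pth1 the deletion libraries held 56.8, 59.4 and 60.9 CPM at 0 h, 24.7 to 78.1 CPM (median 61.9) at 4 to 12 h and 88.7 to 111 CPM (median 97.6) at 24 to 48 h. The wild-type libraries held 19.7, 23.1 and 22.4 CPM at 0 h, 28.4 to 87.05 CPM (median 65.3) at 4 to 12 h and 113 to 143 CPM (median 122) at 24 to 48 h. Each later group of the wild type was above that of 0 h, and the deletion strain started well above the wild type and overlapped its own 0 h at 4 to 12 h. The wild-type rise was 2.56-fold and then 5.79-fold (log2 2.53, SE 0.05, adjusted p = 1.22e-33), and the deletion strain had log2 changes of -0.25 and 0.72, not called.

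The pth3 gene, for an aminoacyl-tRNA hydrolase of mitochondria, rose in the wild type. It had 35.7, 34.7 and 38.5 CPM at 0 h, 32.2 to 63.6 CPM (median 54.7) at 4 to 12 h and 35.5 to 47.8 CPM (median 44.5) at 24 to 48 h in the deletion strain, and 25.8, 26.3 and 23.4 CPM at 0 h, 31.8 to 101 CPM (median 65.6) at 4 to 12 h and 102 to 145 CPM (median 118) at 24 to 48 h in the wild type. The deletion groups all overlapped, and at 24 to 48 h the wild-type libraries were above every deletion library. By time pth3 averaged 36.3, 33.6, 53.7, 60.8, 46.8, 39.1 and 41.97 CPM in the deletion strain and 25.2, 34.1, 63.8, 98.5, 111, 133 and 121 CPM in the wild type, and the courses parted from 12 h on. Its changes were 0.40 and 0.23 in the deletion strain, and 1.25 and log2 2.27, SE 0.07, adjusted p = 1.38e-26 in the wild type. All of pth3 lies opposite cnp1, for the centromeric histone, which had log2 changes of -0.24 and -1.52 in the deletion strain and of -0.15 and -0.97 in the wild type. The third such gene, pth2, fell in the deletion strain at 24 to 48 h (-1.55) and had a log2 change of -0.10 in the wild type. A non-coding RNA opposite the whole of pth2 had log2 changes of 3.45 and 1.34 in those comparisons.

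The amidotransferase that converts glutamate to glutamine on mitochondrial tRNA has 3 subunits here. The gta3 gene had 27.2, 27.9 and 30.5 CPM at 0 h, 26.3 to 30.8 CPM (median 28.8) at 4 to 12 h and 24.8 to 29.4 CPM (median 26.4) at 24 to 48 h in the deletion strain, and 10.3, 9.99 and 9.19 CPM at 0 h, 24.6 to 30.4 CPM (median 26.6) at 4 to 12 h and 23.1 to 30.6 CPM (median 26.3) at 24 to 48 h in the wild type. Wild-type libraries at 0 h were below all others by more than the spread between libraries, and the other groups overlapped one another. The rise was called in the wild type (1.46 and 1.44), with 0.03 and -0.11 in the deletion strain. The gta1 gene had log2 changes of 0.90 and 0.85 in the wild type and gta2 of 0.37 and -0.23, not called. A neighbour on the opposite strand, SPCC777.12c, covers 80.3% of gta3 and had a log2 change of -0.85 in the deletion strain and -0.99 in the wild type at 4 to 12 h.

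The deacylase gene dtd1, whose product removes D-tyrosine from tRNA, had 72.2, 71.6 and 76.5 CPM at 0 h, 66.01 to 91.7 CPM (median 84.1) at 4 to 12 h and 44.9 to 63.7 CPM (median 49.3) at 24 to 48 h in the deletion strain and 28.9, 27.5 and 28.3 CPM at 0 h, 48.04 to 83.1 CPM (median 73.2) at 4 to 12 h and 66.98 to 82.5 CPM (median 75.3) at 24 to 48 h in the wild type. Its wild-type libraries without phosphate were all above those of 0 h, and those of the deletion strain at 24 to 48 h were below their 0 h. The rise in the wild type was called (1.24 and 1.43) and the changes in the deletion strain, 0.11 and -0.49, were not. The opposite-strand gene ppr4 covers 94.0% of dtd1 and had a log2 change of -0.42 in the deletion strain and -0.53 in the wild type at 4 to 12 h. The formyltransferase gene fmt1, for the start of mitochondrial translation, was not called in any comparison.

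**Figure D4:**
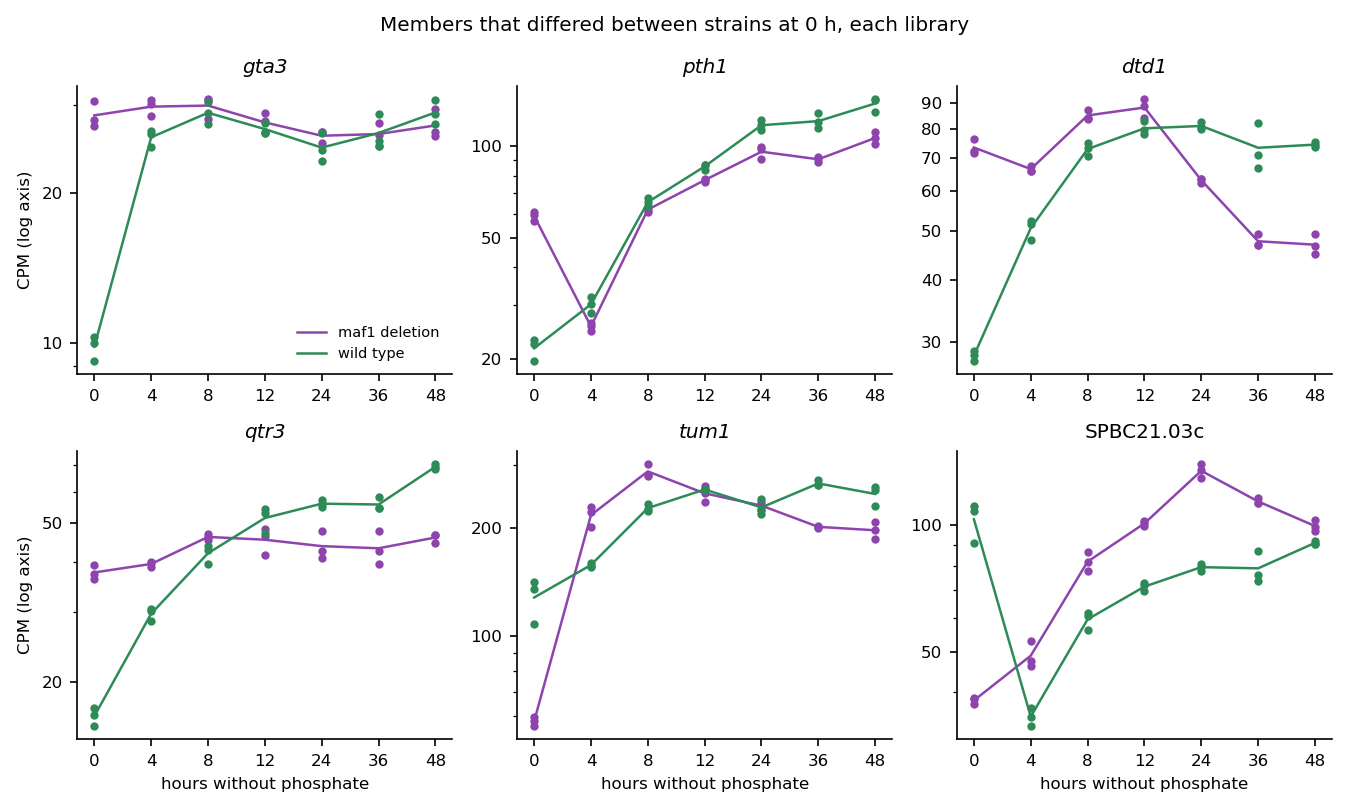
CPM on a log axis against hours without phosphate for gta3, pth1, dtd1, qtr3, tum1 and SPBC21.03c, the maf1 deletion in purple and the wild type in green; points are libraries and lines join the means of 3. At 0 h the deletion libraries are above the wild-type ones for the first 4 genes and below them for tum1 and SPBC21.03c, with no overlap.

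Of the 5 genes outside these roles, sla1 changed the most. Sla1 is the La protein, which binds the 3' end of new RNA polymerase III transcripts and acts as a tRNA chaperone. Its gene had 485, 489 and 487 CPM at 0 h, 74.7 to 90.3 CPM (median 87.1) at 4 to 12 h and 107 to 126 CPM (median 118) at 24 to 48 h in the deletion strain. The wild type had 212, 249 and 228 CPM at 0 h, 90.97 to 123 CPM (median 110.5) at 4 to 12 h and 124 to 155 CPM (median 139) at 24 to 48 h. The libraries of 0 h were the highest of each strain, those of the deletion strain above all others, and at 4 to 12 h every deletion library was below every wild-type library. The fall in the deletion strain was 5.82-fold at 4 to 12 h (log2 -2.54, SE 0.03, adjusted p = 4.89e-38) and 4.15-fold at 24 to 48 h. The wild type fell 2.16-fold at 4 to 12 h (log2 -1.11, SE 0.04, adjusted p = 3.64e-26) and had a log2 change of -0.72 at 24 to 48 h, not called. The tRNA demethylase gene abh1 fell in the deletion strain at 4 to 12 h (-1.22) and had a log2 change of -0.996 in the wild type, at the threshold. An antisense RNA covers all of abh1 and had log2 changes of 0.37 in the deletion strain and -2.24 in the wild type there.

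The gene SPBC21.03c, for an EVE domain protein that the annotation links to tRNA metabolism, lay on opposite sides of its 0 h level in the 2 strains. It had 38.8, 37.4 and 38.5 CPM at 0 h, 46.3 to 102 CPM (median 81.7) at 4 to 12 h and 96.8 to 140.2 CPM (median 113) at 24 to 48 h in the deletion strain, and 108, 90.7 and 111 CPM at 0 h, 33.2 to 72.8 CPM (median 60.97) at 4 to 12 h and 73.6 to 91.6 CPM (median 80.9) at 24 to 48 h in the wild type. Deletion libraries without phosphate were all above those of 0 h, and wild-type libraries at 4 to 12 h all below. The change was 0.95, not called, and then log2 1.59, SE 0.05, adjusted p = 6.22e-27 in the deletion strain, and -0.97 and -0.32, not called, in the wild type. The gene rtc5 covers 87.9% of it on the opposite strand, and rtc5 had log2 changes of 0.86 and 1.41 in the deletion strain and of -0.57 and -0.61 in the wild type. The responses of the strains differed by log2 1.92, SE 0.07, adjusted p = 1.32e-24 at 4 to 12 h. Whether reads of one gene were counted for the other was not tested.

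By count of calls the strains differed most at 0 h and least at 4 to 12 h. At 0 h, 11 of the 77 genes were higher and 4 lower in the deletion strain than in the wild type, where 13.8% of all genes were higher and 15.9% lower (29.7% in all). The median log2 difference was 0.47 for the group and 0.12 for all genes. As shares of the group these are 14.3% and 5.19%, the first near the background and the second below it. Among protein-coding genes alone 13.4% were higher and 10.7% lower, with a median of 0.20. Higher calls made up 73.3% of the 15. When libraries were scaled by size alone, 6 were higher and 6 lower (50.0%), with scaling from protein-coding genes 61.5% were higher, and the median of all genes moved by -0.28 and -0.17, and the group stayed 0.35 above it with either scaling. The genes that were higher in the deletion strain, by log2 difference, were gta3 (1.54), dus2 (1.49), pth1 (1.45), trm112 (1.39), dtd1 (1.38), trm8 (1.29), pus4 (1.23), qtr3 (1.195), trz1 (1.15), sla1 (1.09) and ips1 (1.04), the last for a mitochondrial wobble uridine enzyme. Of these, pus4, qtr3, trz1, sla1 and ips1 were not called with library size alone. With scaling from protein-coding genes trz1 (0.98), sla1 (0.92) and ips1 (0.87) were not called. Fitted with only the groups of the contrast, sla1 (0.96) and ips1 (0.91) were not, and ips1 was also lost with DESeq2's test and its size factors (0.99). The genes that were lower were SPBC21.03c (-1.44), tit1 (-1.25), tum1 (-1.15) and trm734 (-1.07).

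The authors' deposited table of this comparison gives 10 higher and 4 lower genes of the group at the same thresholds, all of which are among the calls above. The gene called here and not there is ips1, with 0.99 in the authors' deposited table and 1.04 here. Some partners on the opposite strand of the 4 lower genes had lower levels too. The genes rtc5, wdr70 and got1 had log2 differences of -1.21, -1.26 and -1.47, and an antisense RNA opposite trm734 stood at 0.866 CPM in the deletion strain and 4.08 CPM in the wild type. A second partner of SPBC21.03c, mis17, which covers 2.1% of it, had a log2 difference of 0.46. Their part in the values of SPBC21.03c, tit1, tum1 and trm734 was not tested. Partners opposite the genes that were higher went either way. For example, lkh1 opposite trz1 had -1.52, ppr4 opposite dtd1 -0.30 and mtx1 opposite qtr3 0.52.

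At 4 to 12 h the strains were close. No gene of the 77 was called in either direction by edgeR or by DESeq2, where 2.35% of all genes were higher and 4.60% lower in the deletion strain (6.95% in all). Among protein-coding genes alone few were called too, 0.852% higher and 1.49% lower (2.34% in all). At an unadjusted p under 0.05 there were 57 genes, and 57 also at an adjusted p under 0.05, 30 of them higher and 27 lower. Their differences were small as stage means, and the 77 log2 differences ran from -0.42 (trz2) to 0.48 (SPBC21.03c), with a median of -0.00 in the group and 0.00 in all genes. A stage mean mixes its times. At 12 h alone the means of pth3 and trm7, given above by time, were further apart than this range, with the deletion strain lower. Among the genes called at 0 h, gta3 was here at 0.10, pth1 at -0.16, dus2 at 0.27, tit1 at -0.19 and sla1 at -0.34.

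From 24 to 48 h, 1 gene was higher and 2 were lower in the deletion strain, where 10.9% and 6.62% of all genes were (17.6% in all). Among protein-coding genes alone 5.78% were higher and 4.30% lower (10.1% in all). The lower genes were trm7 (log2 -1.68, SE 0.03, adjusted p = 1.54e-34) and pth3 (log2 -1.51, SE 0.04, adjusted p = 2.16e-27), whose deletion and wild-type libraries did not overlap. The higher gene was pus4 (log2 1.00, SE 0.03, adjusted p = 1.24e-28), with 137 to 233 CPM (median 172) in the deletion strain and 74.7 to 102 CPM (median 86.2) in the wild type. Those libraries did not overlap either, but the difference lay at the 2-fold threshold and the call was lost when any of 21 libraries was left out. The group's median difference was -0.05, that of all genes -0.01. The next largest differences were 0.85 for pus2 and 0.80 for pgp1 above 0, and -0.73 for tad2 and -0.69 for pus3 below 0, none called.

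**Figure D5:**
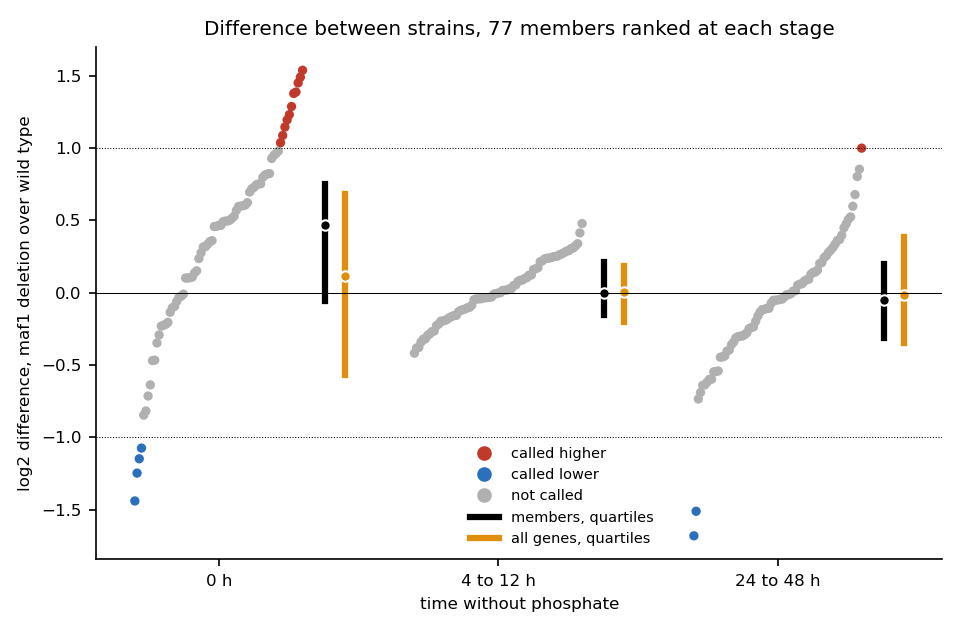
Log2 difference of the maf1 deletion over the wild type for the 77 genes, ranked at 0 h, 4 to 12 h and 24 to 48 h (horizontal axis). Points are genes, vertical bars are the quartiles of the group (black) and of all 6521 genes (orange) with their medians, and dotted lines mark 2-fold; the group spans -1.44 to 1.54 at 0 h and -0.42 to 0.48 at 4 to 12 h.

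The difference between the strains' responses was tested in the same model. By construction it equals the strain difference at a stage minus that at 0 h, so it carries the differences at 0 h. At 4 to 12 h, 3 genes had a higher and 12 a lower response in the deletion strain, beside 15.6% and 15.6% of all genes (31.2% in all). The late response was higher for 4 genes and lower for 19, beside 20.5% and 17.7% (38.2% in all). Among protein-coding genes alone, the early response was higher for 11.2% and lower for 14.1%, and the late one for 13.5% and 17.9%. Medians of the group were -0.42 and -0.48, those of all genes -0.13 and -0.09, and those of protein-coding genes -0.18 and -0.22. Higher responses were 3 of the 15 early calls and 17.4% of the late ones, and with library size alone 66.7% and 40.9%, with scaling from protein-coding genes 40.0% and 34.8%. The median of all genes then moved by 0.28 and 0.30, and by 0.14 and 0.21, and relative to it the group was at -0.29 and -0.39 with the usual scaling, against -0.29 and -0.38 with library size alone. The role with the largest share of calls was acylated tRNA handling. Of its 9 genes 7 had a lower late response in the deletion strain, and the exceptions were gta2 (-0.57) and fmt1 (0.20). The largest were pth3 (log2 -2.04, SE 0.09, adjusted p = 2.75e-21), dtd1 (-1.92) and pth1 (-1.81). The gta1 value (-1.01) lay at the threshold and was lost with each other scaling and with 3 libraries left out in turn. Outside that role trm7 had the largest difference (log2 -2.48, SE 0.06, adjusted p = 9.88e-30).

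The group was also divided by location. For 17 genes the product description names mitochondria, and for 60 it does not. In the deletion strain at 4 to 12 h, 1 of the 17 fell (trz2) and 1 rose (tum1), against 22 of the 60 that fell. Of all genes 16.3% fell and 18.7% rose there, and of protein-coding genes 15.4% and 15.2%. In the wild type 2 of the 17 fell and 3 rose, against 13 that fell and 5 that rose of the 60. The shares of all genes were 18.9% and 19.6%, and those of protein-coding genes 15.8% and 17.8%. At 24 to 48 h, 1 of the 17 fell and 2 rose in the deletion strain, and 20 of the 60 fell and 1 rose. All genes then had shares of 18.7% and 22.6%. The wild type had 0 of the 17 that fell and 3 that rose, and 12 and 7 of the 60, beside 20.1% and 22.0% of all genes. The median log2 changes at 4 to 12 h were -0.25 for the mitochondrial genes and -0.81 for the others in the deletion strain, and 0.30 and -0.53 in the wild type. At 24 to 48 h they were -0.06 and -0.68 in the deletion strain, and 0.39 and -0.34 in the wild type. The difference between these 2 lists was not tested.

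Not every gene was called. In the comparisons with 0 h, 47 of the 77 were called in at least 1 and 30 in none. In each of these comparisons alone, 35.0 to 42.1% of all genes and 30.6 to 36.9% of protein-coding genes were called. The matching shares of all genes, for this count and the next, were not counted, so neither is set against a background. Leaving aside the differences between responses, 29 were called in no comparison. They are the splicing and end genes sen2, sen15, sen54, cca1, cca2 and thg1; the methyltransferase genes pmt1, ppm2, trm5, trm13 and trm140; the dihydrouridine synthase genes dus1 and dus3; the deaminase gene tad1; the other modification genes elp3, mss1, qtr1, qtr2, rit1, slm3, sua5 and tcd1; the acyl handling genes aim41, fmt1, gta1 and gta2; the riboflavin and pseudouridine gene rib2; and ate1 and SPAC824.03c. Of these, aim41 had a lower response in the deletion strain at both stages (-1.15 and -1.50), with changes of -0.85 and -0.95 there and of 0.30 and 0.54 in the wild type. Likewise ppm2 had a higher late response (1.08). The late responses of elp3 (-1.02), gta1 (-1.01) and tcd1 were called lower, and with library size alone these 3 calls were lost (-0.72, -0.71 and -0.77).

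Further genes of tRNA maturation whose descriptions lack the text tRNA were described in the same way. A list of 50 symbols for Elongator, thiolation, RNase P, the KEOPS complex, nuclear export and precursor decay held 32 that were in the table, were not members and matched their product. In the deletion strain 5 of the 32 fell at 4 to 12 h and 4 at 24 to 48 h, shares of 15.6% and 12.5%, where 16.3% and 18.7% of all genes fell. In the wild type 3 rose and 7 fell at 4 to 12 h, and 5 rose and 7 fell at 24 to 48 h, so that 21.9% fell at each stage, where 18.9% and 20.1% of all genes did. The tRNA export receptor gene los1 fell in both strains at 4 to 12 h (-1.35 in the deletion strain and -1.46 in the wild type), and so did the RNase P subunit gene rpr2 (-1.63 and -1.12) and cid14 (-1.41 and -1.04), for a polymerase that tags RNAs for decay. The exosome nuclease gene dis3 fell in the deletion strain (-1.09 and -1.22) and rose in the wild type (1.15 and 1.21), and stood 2.095 higher in the deletion strain at 0 h on the log2 scale. The genes lsm6 and lsm7, for subunits of the Lsm ring that binds 3' ends of small RNA precursors, rose in the wild type at 4 to 12 h (2.95 and 1.19) and had 0.52 and -0.24 in the deletion strain. Between the strains, 6 of the 32 were higher and 2 lower in the deletion strain at 0 h, shares of 18.8% and 6.25%. Of all genes 13.8% were higher and 15.9% lower there, and of protein-coding genes 13.4% and 10.7%. At 4 to 12 h and at 24 to 48 h edgeR's quasi-likelihood test called 0 of 32, with 22 and 28 at an unadjusted p under 0.05. It called 6.95% and 17.6% of all genes at those stages, and 2.34% and 10.1% of protein-coding genes.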

How the data were processed

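Poly(A) RNA of 2 strains at 7 times was sequenced on stranded TruSeq libraries, per the labels' protocols, and each of the 14 samples has 3 replicate columns in the count table. Per the submitters' processing notes the tools were HISAT2 2.1.0, HTSeq 0.10.0, SAMtools and DESeq2, with the build ASM294v2; which did what, and the strand setting of the counting, is not given in the sources used here. The deposited table holds expected counts (estimated counts) per gene, whole numbers except 0.5 where a 0 would stand, in 19110 of 293538 values (6.51%); they were rounded, 0.5 to 0. The authors also deposited a comparison of the strains at 0 h with a log2 fold change and an adjusted p-value per gene and the product descriptions from which the members were taken. Of 6989 lines 2 share an identifier and were summed.

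With R 4.3.3 and edgeR 4.0.16, genes were kept by filterByExpr with the 14 groups (6521 genes), scaled by TMM and fitted together by the quasi-likelihood model with 1 mean per group (28 residual degrees of freedom, square root of the median tagwise dispersion 0.0456). Every adjusted p given for a gene is from glmQLFTest with Benjamini-Hochberg adjustment over the 6521 genes, and standard errors come from its F statistics. A call needed an adjusted p under 0.05 and a change of at least 2-fold. Stages are means over 3 times, and 9 contrasts were tested. The fit was checked on simulated data. Chi-square per degree of freedom between replicate libraries was 2.86 to 55.3, above counting error. Replicate numbers were not used as a pairing in the main fit. Alternatives were DESeq2's test (1.42.0) and its size factors, library size alone, scaling from protein-coding genes, no filter, separate fits for the groups of a contrast, a replicate block, and leaving out each of 42 libraries.

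The members, the list of further genes and the tests were chosen with earlier results of these data known. Roles were read from the product text, with 6 genes moved by hand, and roles stated in the text are background knowledge. Named are the 4 marker genes, up to 8 called members in each direction and contrast by size of change, and members needed to account for a role. The further list held 50 symbols, of which 10 were absent, 5 were members and 3 belong to other proteins. Counts give no bound on precision beyond counting error.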

Additional observations from a re-analysis of the deposited data

Results flagged for a closer look

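The responses of the 2 strains to loss of phosphate differed, by the test of the difference itself (edgeR's quasi-likelihood test, adjusted p under 0.05 and at least 2-fold), for the following genes, given as the log2 response of the deletion strain minus that of the wild type. Each such value includes the strains' difference at 0 h. Replicate groups of 3 are too small for a test of single libraries that stand apart.

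At 4 to 12 h the response of the deletion strain was higher for SPBC21.03c (1.92), the sulfurtransferase gene tum1 (1.40) and the isopentenyltransferase gene tit1 (1.06). It was lower for the peptidyl-tRNA hydrolase gene pth1 (-1.61), the amidotransferase subunit gene gta3 (-1.44), the La gene sla1 (-1.43), the dihydrouridine synthase gene dus2 (-1.22), the m7G methyltransferase gene trm8 (-1.21), aim41 (-1.15), the deacylase gene dtd1 (-1.13) and the mitochondrial wobble gene ips1 (-1.07). With library size alone as the scaling, dus2, trm8, aim41, dtd1 and ips1 did not reach 2-fold (-0.94, -0.93, -0.86, -0.85 and -0.79), and with scaling from protein-coding genes dtd1 and ips1 did not (-0.99 and -0.94).

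At 24 to 48 h it was higher for SPBC21.03c (1.92), the pseudouridine synthase gene pus2 (1.32), the Trm7 partner gene trm734 (1.15) and the methyltransferase gene ppm2 (1.08). It was lower for trm7 (-2.48), the hydrolase gene pth3 (-2.04), dtd1 (-1.92), pth1 (-1.81), the queuosine gene qtr3 (-1.63), trm8 (-1.59), gta3 (-1.54) and aim41 (-1.50). These late calls stayed with library size alone, with scaling from protein-coding genes and with each library left out. For trm7 and pth3 the strains also differed at 24 to 48 h itself, by -1.68 and -1.51. For gta3 the difference at 24 to 48 h was -0.01, for pth1 -0.36, for trm8 -0.30 and for dtd1 -0.55, and the differences at 0 h were 1.54, 1.45, 1.29 and 1.38 in that order of genes.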

How the results depend on the processing

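Over 693 values (77 genes in 9 contrasts) no called value changed sign under any alternative. The call or its absence stayed for 681 with DESeq2's test and likewise with its size factors, 640 with library size alone, 659 with scaling from protein-coding genes, 689 without the filter, 679 with only the groups of a contrast in the fit, and 692 with the replicate block. Counts that moved by over 1.5 times did so mainly with library size alone. There 23 genes fell in the wild type at 4 to 12 h (15 with TMM) and 19 at 24 to 48 h (12), 2 rose in the deletion strain at 4 to 12 h (1), 6 were higher in the deletion strain at 0 h (11), the early difference of responses had 6 higher and 3 lower (3 and 12), and the late one 9 higher (4). Scaling from protein-coding genes gave 2 that rose in the deletion strain at 4 to 12 h, 6 lower early differences and 8 higher late ones. The shifts of the all-gene median given in the results are part of how these scalings are built. At 24 to 48 h the count of genes higher in the deletion strain, 1 (pus4), was 0 without the filter and 0 with the replicate block, and 0 to 1 when 1 library was left out.

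Same-numbered libraries did not deviate together in most pairs of groups. Over 91 pairs of groups the correlation of deviations ran from -0.161 to 0.441 (median 0.0395), with 24 over 0.1. The highest were within a strain, as between 24 and 48 h of the wild type (0.441). Between 12 and 36 h of the deletion strain it was 0.295, and the highest between strains was 0.239. Whether same-numbered libraries of a strain belong together cannot be settled from these values, since the labels do not say. The replicate block moved no other call than that of pus4.

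Of 149 called values 138 were kept whichever of the 42 libraries was left out, and 11 were lost for some, with a log2 size of 0.954 to 0.998 at the lowest. The most often lost were trm1 in the deletion strain at 4 to 12 h (26 libraries, lowest size 0.971) and pus4 (21 libraries, 0.982). Losses of 1 library each were pgp1 in the deletion strain at 24 to 48 h (0.954 without deletion 0 h replicate 1), tit1 in the early difference (0.976 without wild-type 0 h replicate 3), tpt1 in the early difference (0.998 without deletion 8 h replicate 3) and trm2 in the deletion strain at 24 to 48 h (0.997 without deletion 8 h replicate 3). Losses of 2 or 3 were elp3 and gta1 in the late difference (0.974 and 0.970), tad2 in the wild type at 24 to 48 h (0.983), trm12 in the deletion strain at 24 to 48 h (0.984) and trm7 in the early difference (0.977).

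Depth limits little here, since all 77 genes passed the filter, but the deletion libraries are all deeper than the wild-type ones, and depth, mating type and genotype cannot be told apart.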
